A study of Mus musculus with 12 samples.

Results

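The genes described here are 9 transcripts of the cardiac adrenergic pathway: 3 receptors (Adrb1, Adra1a and Adra1b), the receptor kinase Grk5, the stimulatory G protein gene Gnas, 2 adenylyl cyclases (Adcy5 and Adcy6) and 2 subunits of protein kinase A (Prkaca and Prkar1a). They were taken by symbol from a table of read counts for 25319 genes and its companion table of FPKM values, and all 9 were among the 14965 genes that passed the filter on low counts. Left ventricles came from 12 mice, all male C57BL/6, in 4 groups of 3, and every animal was operated on at 8 weeks of age and killed at 12 weeks. TAC dantrolene mice had a constriction of the aortic arch and a daily dantrolene dose of 30 mg per kg over 4 weeks, TAC control mice had the constriction without the drug, sham dantrolene mice had the drug and an operation that left the aorta open, and sham control mice had that operation alone. Transverse aortic constriction (TAC) loads the left ventricle with pressure, and dantrolene binds the ryanodine receptor, through which calcium leaves the sarcoplasmic reticulum. What the control mice were given in place of the drug is not stated in the labels.

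Noradrenaline and adrenaline act on the cardiomyocyte through β and α1 receptors. The β1 receptor couples to the stimulatory G protein Gαs, which activates adenylyl cyclase. The cyclic AMP that the cyclase makes releases the catalytic subunit of protein kinase A from its regulatory subunit, and the kinase phosphorylates L-type calcium channels, phospholamban and the ryanodine receptor. α1 receptors couple instead to Gq and phospholipase C, which raise diacylglycerol and calcium. Receptor kinases phosphorylate active receptors and so uncouple them from the G protein, and in the failing heart loss of β1 receptors and gain of receptor kinase are long known.

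The genes lie on 7 chromosomes of GRCm38 in GENCODE vM21. Adrb1 (ENSMUSG00000035283.4) occupies bases 56722199 to 56733113 of chromosome 19 on the plus strand, and Grk5 (ENSMUSG00000003228.8) bases 60889749 to 61095968 of the same chromosome and strand. Adra1b (ENSMUSG00000050541.12) spans 43774606 to 43901210 of chromosome 11 on the minus strand. Prkar1a (ENSMUSG00000020612.14) spans 109649405 to 109669656 of the same chromosome on the plus strand. Adra1a (ENSMUSG00000045875.10) lies at 66635251 to 66771168 of chromosome 14, Adcy5 (ENSMUSG00000022840.8) at 35154877 to 35305738 of chromosome 16 and Prkaca (ENSMUSG00000005469.9) at 83972993 to 83996443 of chromosome 8, all on the plus strand. Adcy6 (ENSMUSG00000022994.8) lies at 98589973 to 98610076 of chromosome 15 on the minus strand. Gnas (ENSMUSG00000027523.17), an imprinted locus with several promoters, spans 174284320 to 174346744 of chromosome 2 on the plus strand. Its exons share 1469 bases with those of Gm20721 on the other strand, which held 44288 reads over the 12 libraries, or 14.6% as many as Gnas. Adcy6 shares 605 exonic bases with Gm29331 on the other strand, whose 487 reads came to 0.91% of those of Adcy6. The strand setting of the counting is not given in the sources used here, so reads of Gnas and of its overlapping partner cannot be told apart.

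Protein kinase A also acts in the nucleus, where it phosphorylates CREB, a factor that binds the cyclic AMP response element TGACGTCA and the shorter TGACG contained in it. RefSeq start sites on GRCm38.p6 were at hand for 7 of the 9 genes, in 17 windows of 250 bases before a start, and were not for Adra1a and Adcy6. Read on both strands, the full element stood in 1 of these windows, before a start of Prkar1a, and in 508 of the 32851 windows of all genes (1.55%). The short element stood in windows of 4 of the 7 genes, Adrb1, Gnas, Prkaca and Prkar1a, and in at least 1 window of 5347 of 27025 genes (19.8%). A match describes letters in the window, not a bound site. The Prkar1a window is printed as the one with the full element, in capitals, and the window of Grk5 and 1 of the 2 of Adra1b because the values below turn on these genes. Each runs 5′ to 3′ on the strand of its gene and ends at the base before the start.
Prkar1a, chr11:109650699-109650948, plus strand: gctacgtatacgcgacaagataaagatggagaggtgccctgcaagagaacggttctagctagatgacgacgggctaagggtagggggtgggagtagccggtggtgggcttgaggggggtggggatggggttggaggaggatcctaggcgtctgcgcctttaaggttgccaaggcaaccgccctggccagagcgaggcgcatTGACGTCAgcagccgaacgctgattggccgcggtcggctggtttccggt
Grk5, chr19:60889499-60889748, plus strand: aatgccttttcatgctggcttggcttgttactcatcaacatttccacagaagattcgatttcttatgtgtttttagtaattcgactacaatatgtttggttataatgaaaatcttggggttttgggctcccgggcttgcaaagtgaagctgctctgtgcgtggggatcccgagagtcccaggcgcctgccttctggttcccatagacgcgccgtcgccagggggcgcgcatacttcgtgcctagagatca
Adra1b, chr11:43836490-43836739, minus strand: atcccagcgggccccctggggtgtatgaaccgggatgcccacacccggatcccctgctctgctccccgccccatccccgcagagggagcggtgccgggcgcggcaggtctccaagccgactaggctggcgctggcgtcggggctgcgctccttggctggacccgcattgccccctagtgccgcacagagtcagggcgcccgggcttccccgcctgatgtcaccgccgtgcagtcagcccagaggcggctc

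The libraries held 25766378 to 38363106 reads. The first principal component of log2 CPM, the read counts brought to a common library size by TMM scaling, held 41.7% of the variance and set 1 library of each group apart: TAC dantrolene 1, TAC control 1, sham dantrolene 3 and sham control 3. Mitochondrially encoded genes took between 1.71% of the reads, in TAC dantrolene 2, and 22.4%, in TAC control 3. All 7 markers of ventricular cardiomyocytes were tested, and their sum was 78330 to 168990 CPM, highest in TAC dantrolene 1 and TAC control 1. Atrial markers, a list that includes Nppa, summed to 113 to 2018 CPM. The summed markers of endothelium ran from 543 to 855 CPM, of smooth muscle and pericytes from 354 to 574 CPM, of macrophages from 166 to 552 CPM, of neurons and Schwann cells from 5.18 to 18.9 CPM, of epicardium from 1.32 to 32.9 CPM and of adipocytes from 0.124 to 5.21 CPM. Values without these libraries are given beside those over all 12, from a fit of 8 libraries chosen after the data were seen that leaves 2 mice in each group.

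Per transcript length, the kinase and the G protein stood far above the receptors. Prkaca averaged 134 FPKM over the 12 libraries (range 90.1 to 186), Gnas 65.9 FPKM (36.6 to 94.0) and Prkar1a 48.1 FPKM (22.1 to 90.3). Adcy6 averaged 20.2 FPKM (6.88 to 41.3), Adra1b 11.1 FPKM (4.14 to 18.1) and Adcy5 11.0 FPKM (5.12 to 17.5). Grk5 averaged 5.27 FPKM (2.20 to 7.74), Adrb1 3.99 FPKM (1.11 to 6.35) and Adra1a 0.784 FPKM (0.25 to 1.54). The order Prkaca, Gnas, Prkar1a, Adcy6 held in 12 of 12 libraries for each neighbouring pair, as did Adrb1 above Adra1a. Adcy6 was above Adra1b in 11 libraries, Adcy5 above Grk5 in 11 and Grk5 above Adrb1 in 10. Adra1b was above Adcy5 in 6 of 12 libraries, so these 2 neighbours did not differ beyond their spread.

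Within its family, each gene was set beside its relatives on the same per-length scale. Adra1b took 43.5% to 77.2% of the summed FPKM of the 8 adrenergic receptor genes set side by side here, more than any other of them in each library. Adrb1 took 8.35% to 38.3%, Adra1d, the α1D receptor, 6.52% to 15.2% and Adra1a 1.88% to 7.15%. Among receptor kinases the largest share was that of Adrbk1, which encodes GRK2, at 58.7% to 71.6%, while Grk5 took 7.25% to 22.0%. Adcy6 took 31.0% to 53.4% of the adenylyl cyclase FPKM and Adcy5 17.9% to 34.3%, ahead of Adcy4 at 11.8% to 30.8% in most libraries. Among protein kinase A subunits Prkaca took 55.2% to 80.0% and Prkar1a 17.0% to 38.4%. In a whole ventricle such shares mix cell types, and fewer cells of a type and less RNA per cell cannot be told apart.

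**Figure D1:**
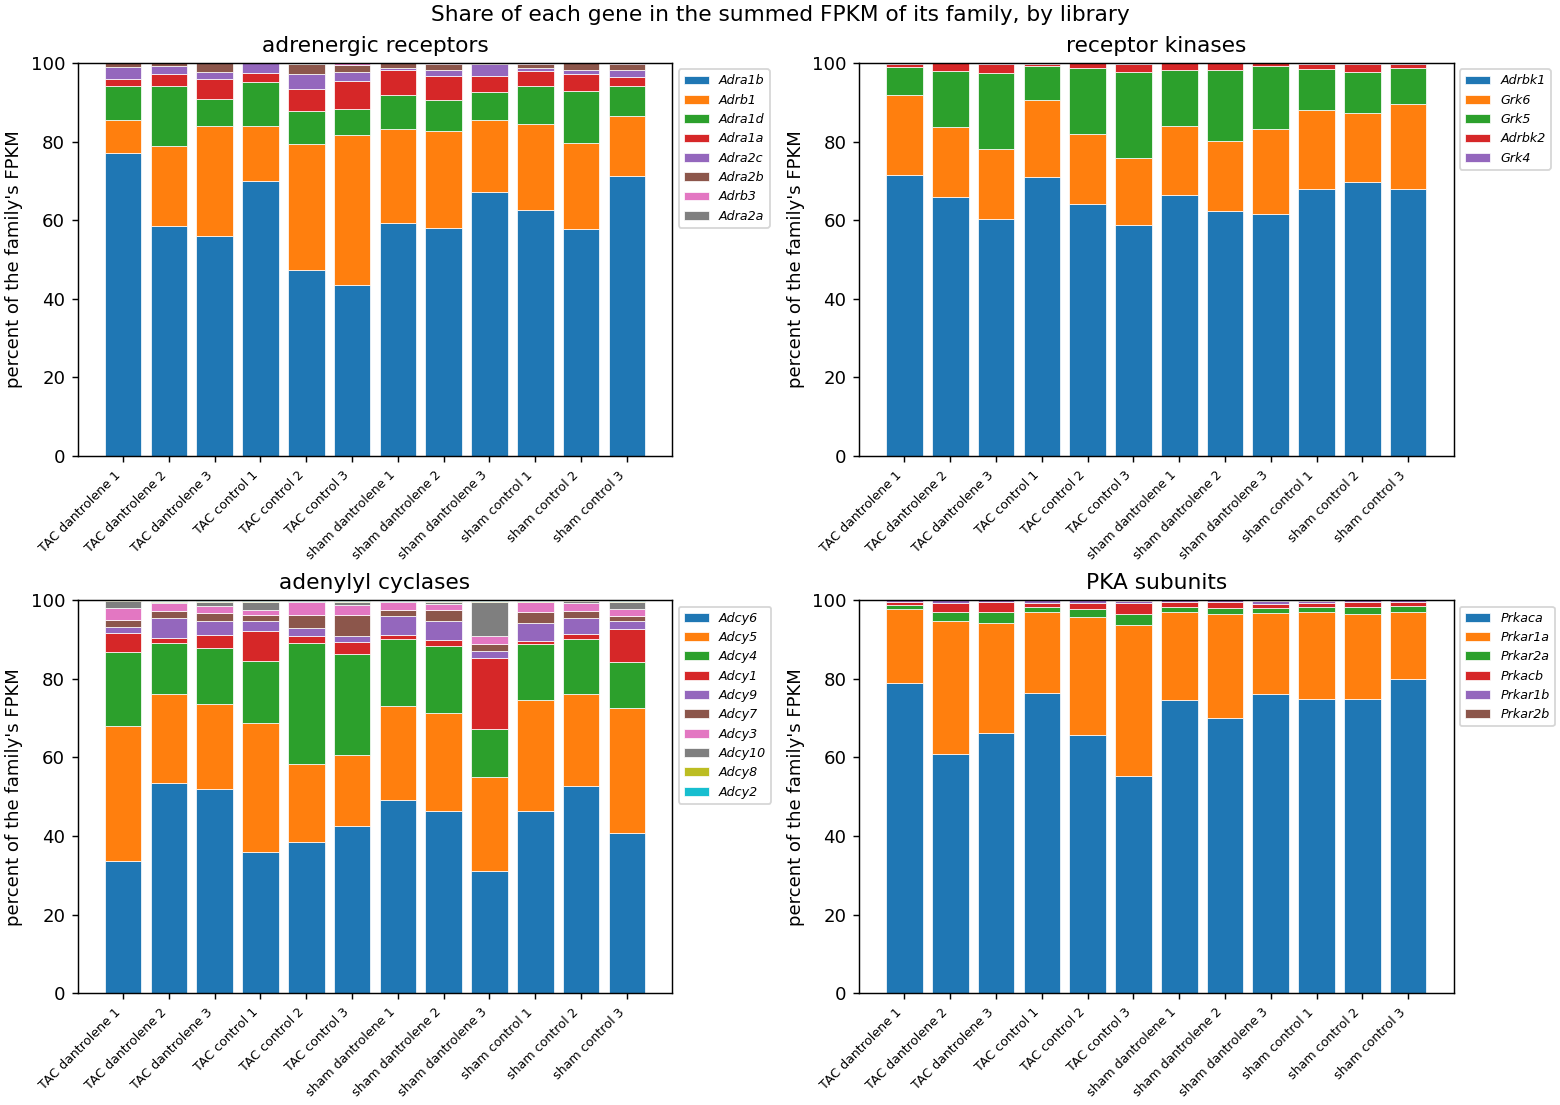
Share of each gene in the summed FPKM of its family (percent, from 0 to 100) for 8 adrenergic receptors, receptor kinases, adenylyl cyclases and protein kinase A subunits, 1 bar per library. Adra1b is the largest receptor share in every library, with its lowest shares, 43.5% and 47.3%, in TAC control 3 and TAC control 2, and Prkaca the largest kinase subunit share.

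Adrb1 encodes the β1 receptor, the main β receptor of the cardiomyocyte. It stood at 4.66, 14.8 and 14.1 CPM in TAC dantrolene mice 1 to 3, at 8.26, 10.1 and 10.2 CPM in TAC control, at 15.6, 13.5 and 6.94 CPM in sham dantrolene and at 12.4, 12.9 and 8.35 CPM in sham control. The groups overlapped in each comparison, and the lowest mouse of each group was its library apart. TAC control differed from sham control by a log2 fold change of -0.24 (95% interval -1.15 to 0.68). With this spread a true difference inside that interval was not excluded. The interaction, 0.13 ± 0.60 (SE), and the drug's differences, 0.23 ± 0.42 under TAC and 0.10 ± 0.42 under sham, were smaller than their errors over 12 libraries. In the fit of 8 libraries, without the lowest mouse of each group, they were larger with smaller errors, at 0.29 ± 0.30 for the interaction, 0.50 ± 0.21 under TAC (edgeR adjusted p = 0.199) and 0.22 ± 0.21 under sham (edgeR adjusted p = 1.00). TAC control against sham control was -0.34 ± 0.22 there (edgeR adjusted p = 0.353), and Adrb1 passed in none of the comparisons.

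Adra1a and Adra1b encode the α1A and α1B receptors. Adra1a stood at 2.63, 5.79 and 6.26 CPM in TAC dantrolene, at 3.33, 4.53 and 4.79 CPM in TAC control, at 10.3, 8.31 and 3.97 CPM in sham dantrolene and at 5.67, 6.43 and 3.25 CPM in sham control. These groups overlapped too, with the library apart lowest in all 4 groups. Its log2 difference between TAC dantrolene and TAC control was 0.22 ± 0.45 over 12 libraries and 0.37 ± 0.27 over 8, between TAC control and sham control -0.28 ± 0.45 and -0.40 ± 0.27, and between sham dantrolene and sham control 0.55 ± 0.45 and 0.63 ± 0.26. None of these passed the edgeR test. Adra1b stood at 58.3, 57.2 and 38.3 CPM in TAC dantrolene, at 55.6, 20.3 and 15.8 CPM in TAC control, at 52.6, 43.0 and 34.4 CPM in sham dantrolene and at 48.6, 46.1 and 52.8 CPM in sham control. TAC control 2 and 3 lay below all 10 other libraries. In CPM TAC control 1, the library apart, lay above all sham control mice. Its TMM scaling factor was 0.742, beside 1.02 to 1.15 for the sham control mice. On the FPKM scale, which divides by library total, TAC control 1 read 10.1 FPKM. It was there below the sham control mice (13.2 to 13.7) and the TAC dantrolene mice (10.3 to 18.1).

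Over the 12 libraries the log2 fold change of Adra1b was -0.69 ± 0.41 (SE) for TAC control against sham control (edgeR adjusted p = 0.684) and 0.75 ± 0.41 for TAC dantrolene against TAC control (edgeR adjusted p = 1.00). Neither passed the threshold of 0.05. In the fit of 8 libraries Adra1b passed in both comparisons, at -1.41 ± 0.24 (edgeR adjusted p = 0.0218) and 1.40 ± 0.24 (edgeR adjusted p = 0.0254). The 2 comparisons share the TAC control mice. That fit called 2.03% of 15069 genes lower in TAC control than in sham control, and 1.65% higher in TAC dantrolene than in TAC control. Without TAC control 1 alone the fold changes were -1.45 (edgeR adjusted p = 0.0886) and 1.50 (edgeR adjusted p = 0.204).

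Several other values also differed among the TAC libraries. For Hspa1a, a heat shock gene, TAC dantrolene 1 to 3 read 10.5, 14.7 and 130 CPM, against 7.99, 156 and 157 CPM for TAC control 1 to 3. For Dbp, a gene with a daily rhythm, the TAC dantrolene mice read 31.6, 17.5 and 139 CPM and the TAC control mice 13.1, 184 and 180 CPM. TAC dantrolene 3, TAC control 2 and TAC control 3, the 3 TAC libraries with the highest Hspa1a and Dbp, had the lowest Adra1b in CPM. In FPKM TAC dantrolene 3 read 10.9 for Adra1b, above TAC dantrolene 1 at 10.3 and TAC control 1 at 10.1. In sham mice Hspa1a stayed between 4.27 and 13.1 CPM and Dbp between 112 and 335 CPM. Mitochondrial genes took 8.02%, 1.71% and 16.8% of the reads in TAC dantrolene and 10.5%, 15.6% and 22.4% in TAC control. The 5 fibroblast markers summed to 243 to 522 CPM in TAC dantrolene and 265 to 976 CPM in TAC control, and the ventricular markers to 78330 to 168990 CPM and 81055 to 162416 CPM. The 3 atrial markers tested, Nppa among them, summed to 277, 367 and 113 CPM in TAC dantrolene 1 to 3 and to 538, 1929 and 2018 CPM in TAC control 1 to 3, without overlap. The sham libraries stood between 198 and 482 CPM. The 2 libraries with the lowest Adra1b thus had the highest atrial sums, and were also the lowest for Adcy5 and Prkaca in CPM. The part of these in the result was not tested, and the labels give no time of day.

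Grk5 encodes a receptor kinase that is abundant in heart and can also act in the nucleus. It stood at 11.7, 22.4 and 21.2 CPM in TAC dantrolene, at 17.8, 21.6 and 21.8 CPM in TAC control, at 20.5, 25.8 and 24.8 CPM in sham dantrolene and at 14.1, 13.6 and 13.3 CPM in sham control. The sham control mice, 13.7 ± 0.404 CPM (SD, n = 3), lay in CPM below every mouse of the other groups except TAC dantrolene 1. On the FPKM scale TAC control 1, at 3.46 FPKM, was also below the sham control mice (3.56 to 4.32). TAC control and sham control thus overlapped there. The 4 epicardial markers summed to 16.4, 25.5 and 3.44 CPM in TAC dantrolene 1 to 3 and to 32.9, 5.41 and 4.29 CPM in TAC control. They summed to 3.31, 4.08 and 8.85 CPM in sham dantrolene. In sham control they summed to 2.67, 1.69 and 1.32 CPM, below all 9 other libraries. TAC control 1 had the highest sum and the lowest Grk5 of its group, while TAC dantrolene 2 had the highest of both in its group. The part of these markers in the Grk5 values was not tested. Sham dantrolene averaged 23.7 ± 2.84 CPM, 1.73-fold above sham control (log2 0.79 ± 0.27 SE, 95% interval 0.21 to 1.37). Over 14965 genes the edgeR adjusted p was 1.00. TAC control averaged 20.4 ± 2.24 CPM, a log2 fold change of 0.58 ± 0.27 from sham control (edgeR adjusted p = 0.632).

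Both contrasts of Grk5 against sham control moved little with the choice of libraries. They stayed between 0.72 and 0.88 for sham dantrolene and between 0.52 and 0.67 for TAC control when 1 library at a time was left out, and were 0.76 and 0.62 in the fit of 8 libraries (edgeR adjusted p = 1.00 and 0.107). Under TAC the drug made a difference of -0.14 ± 0.27, and the interaction, the drug's effect under TAC minus that under sham, was -0.93 ± 0.38 (95% interval -1.75 to -0.12, edgeR adjusted p = 1.00), and -0.74 ± 0.30 in the fit of 8 libraries (edgeR adjusted p = 0.313). None of these passed the adjusted threshold. The ratio of Adrb1 to Grk5 within a library does not depend on how libraries are scaled. It was 0.59, 0.60 and 0.60 in TAC control and 1.12, 1.21 and 0.80 in sham control on the FPKM scale, with no overlap (exact permutation test, two-sided p = 0.1, the smallest that 3 against 3 can give). It was 0.50, 0.84 and 0.84 in TAC dantrolene, and 0.97, 0.67 and 0.36 in sham dantrolene, which overlapped with sham control.

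**Figure D2:**
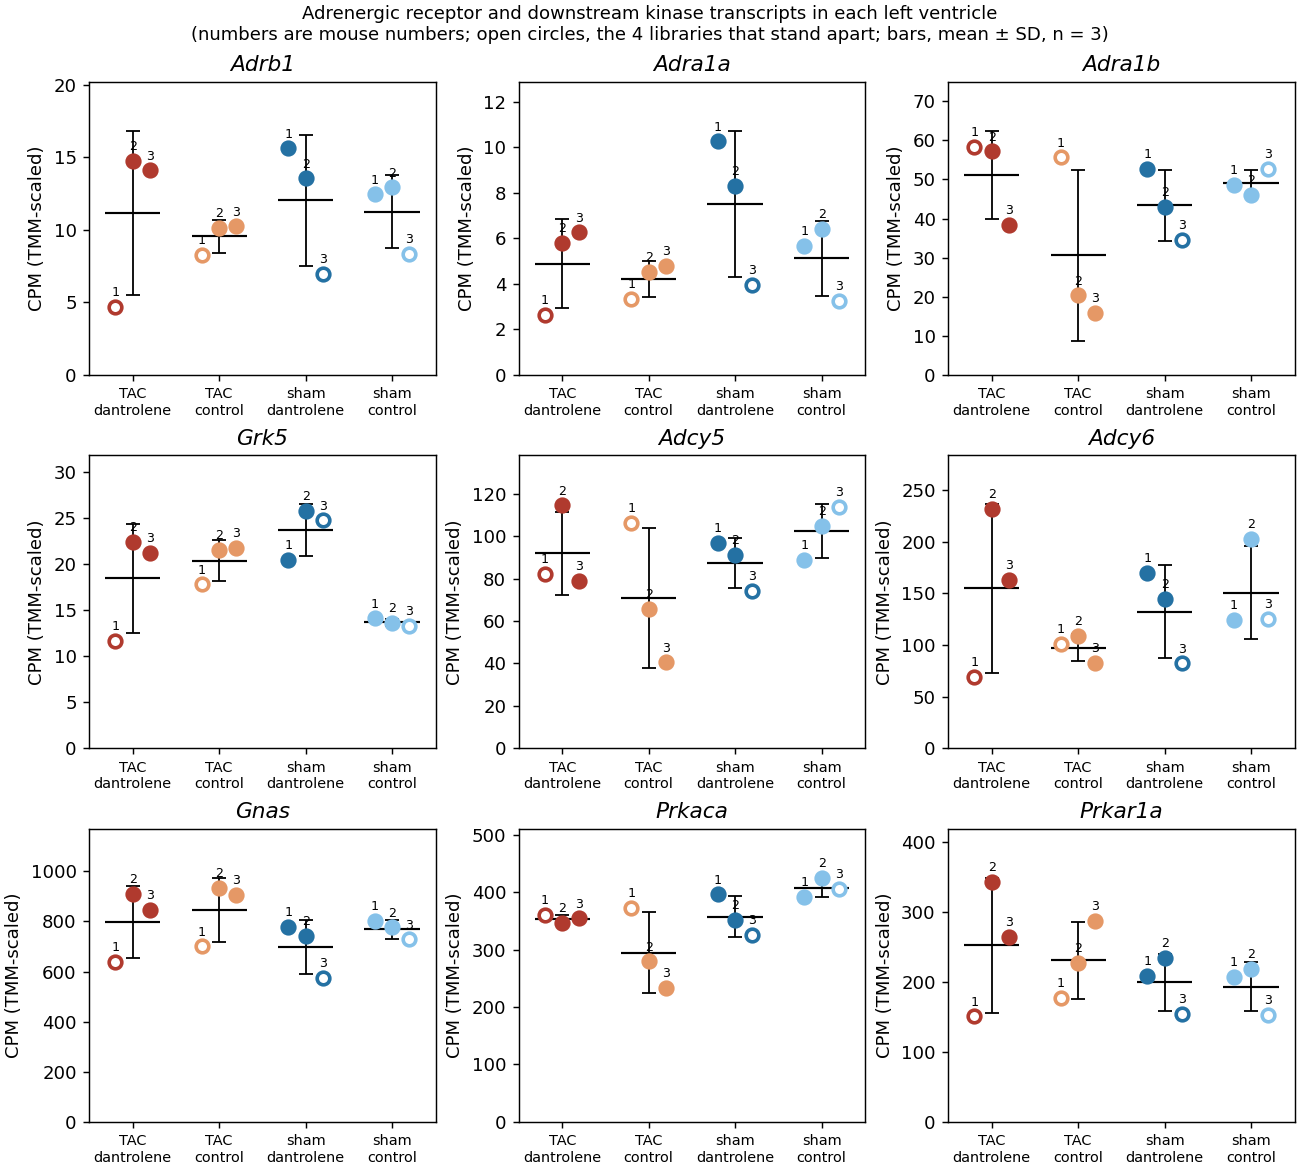
CPM of the 9 genes in each library (circles, numbered by mouse), with the mean and SD of each group of 3, and open circles for the 4 libraries that stand apart on the first principal component. Grk5 sits between 13.3 and 14.1 CPM in sham control and between 20.5 and 25.8 CPM in sham dantrolene, and Adra1b at 20.3 and 15.8 CPM in TAC control 2 and 3, below every other library.

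Gnas encodes Gαs, which carries the signal from the β receptor to the cyclase. It stood at 637, 910 and 846 CPM in TAC dantrolene, at 700, 935 and 906 CPM in TAC control, at 779, 743 and 576 CPM in sham dantrolene and at 802, 776 and 728 CPM in sham control. The groups overlapped, and the range over all 12 libraries, 0.70 log2 units, was the narrowest of the 9 genes. TAC control differed from sham control by 0.14 ± 0.28 with TMM scaling, by 0.20 ± 0.18 in the fit of 8 libraries, and by -0.13 on the FPKM scale, which divides by library total and moved the median of all genes in this comparison by -0.18.

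Adcy5 and Adcy6 encode the adenylyl cyclases that calcium inhibits and that predominate in the adult heart. Adcy5 stood at 82.4, 114 and 78.9 CPM in TAC dantrolene, at 106, 65.6 and 40.5 CPM in TAC control, at 96.9, 91.2 and 74.1 CPM in sham dantrolene and at 88.8, 105 and 114 CPM in sham control. As for Adra1b, TAC control 2 and 3 were the 2 lowest libraries and TAC control 1 was within the sham control range. Adcy6 stood at 69.4, 232 and 163 CPM in TAC dantrolene, at 101, 109 and 82.9 CPM in TAC control, at 170, 144 and 82.2 CPM in sham dantrolene and at 124, 203 and 125 CPM in sham control. All 3 TAC control mice were below all 3 sham control mice, while TAC dantrolene held both the lowest and the highest library of the study.

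For Adcy6 the log2 fold change was -0.63 ± 0.41 between TAC control and sham control (edgeR adjusted p = 0.721) and 0.67 ± 0.41 between TAC dantrolene and TAC control (edgeR adjusted p = 1.00). In the fit of 8 libraries these were -0.79 ± 0.27 (edgeR adjusted p = 0.110) and 1.04 ± 0.27 (edgeR adjusted p = 0.0598). For Adcy5 they were -0.53 ± 0.33 and 0.38 ± 0.33 over 12 libraries, and -0.89 ± 0.26 (edgeR adjusted p = 0.0816) and 0.86 ± 0.26 (edgeR adjusted p = 0.0913) over 8. Neither cyclase passed in either fit. The ratio of Adcy6 to Adcy5 FPKM averaged 1.92 in TAC dantrolene, 1.81 in TAC control, 1.73 in sham dantrolene and 1.72 in sham control. The library apart had the lowest ratio in each group, between 0.98 and 1.29, against 1.63 to 2.40 in the other 8.

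Prkaca encodes the catalytic subunit Cα of protein kinase A. It stood at 360, 347 and 354 CPM in TAC dantrolene, at 372, 279 and 233 CPM in TAC control, at 396, 351 and 325 CPM in sham dantrolene and at 392, 425 and 405 CPM in sham control. TAC control lay below sham control without overlap, and in CPM the TAC dantrolene mice stood inside the TAC control range. On the FPKM scale TAC dantrolene 1 to 3 read 93.7, 162 and 148 FPKM, beside 90.1 to 104 FPKM in TAC control. The difference between TAC control and sham control was -0.47 ± 0.25 (edgeR adjusted p = 0.669), and -0.69 ± 0.20 in the fit of 8 libraries (edgeR adjusted p = 0.0732). TAC dantrolene differed from TAC control by 0.26 ± 0.25 over 12 libraries and 0.45 ± 0.19 over 8 (edgeR adjusted p = 0.200).

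Prkar1a encodes the regulatory subunit RIα, which holds the catalytic subunit inactive. It stood at 151, 343 and 265 CPM in TAC dantrolene, at 178, 228 and 288 CPM in TAC control, at 209, 234 and 155 CPM in sham dantrolene and at 207, 219 and 153 CPM in sham control. The groups overlapped in each comparison, and the library apart was lowest in all 4 groups. TAC control differed from sham control by 0.26 ± 0.34 over 12 libraries and 0.25 ± 0.20 over 8, and TAC dantrolene from TAC control by 0.13 ± 0.34 and 0.24 ± 0.20. TAC dantrolene differed from sham dantrolene by 0.34 ± 0.34 and 0.42 ± 0.20, and none of these passed the edgeR test. The ratio of Prkaca to Prkar1a FPKM was 4.24, 1.80 and 2.38 in TAC dantrolene, 3.72, 2.18 and 1.44 in TAC control, 3.36, 2.66 and 3.72 in sham dantrolene and 3.36, 3.45 and 4.70 in sham control. TAC control 2 and 3 and TAC dantrolene 2 and 3 had the 4 lowest ratios. The groups overlapped, and the exact permutation test gave a two-sided p = 0.3 for TAC control against sham control.

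Set side by side, 0 of the 9 genes passed the adjusted threshold in any of the 5 comparisons by edgeR over 12 libraries, and the share of all genes called was 0% in each. DESeq2 called none of the 9 either, beside 0.477% of all genes for TAC control against sham control and 0.0506% for TAC dantrolene against TAC control, 0% for the other 2 pairs and 0.00397% for the interaction. At an unadjusted edgeR p under 0.05 the counts of the 9 were 0 for TAC control against sham control (7.93% of all genes), 0 for TAC dantrolene against TAC control (3.25%), 1 for sham dantrolene against sham control (0.715%), 0 for TAC dantrolene against sham dantrolene (1.71%) and 1 for the interaction (2.82%). Both single cases were Grk5. In CPM, groups without overlap numbered 3 of 9 for TAC control against sham control, Grk5 higher and Adcy6 and Prkaca lower. Of all genes 17.4% had no overlap there (7.54% higher and 9.82% lower). Such groups numbered 1 of 9, Grk5 higher, for sham dantrolene against sham control (7.37%, 2.99% higher). They numbered 0 for TAC dantrolene against TAC control (4.76%) and 0 for TAC dantrolene against sham dantrolene (4.86%). The scale mattered. On the FPKM scale Grk5 overlapped between TAC control and sham control, while Adra1b and Adcy5 were lower without overlap, as Adcy6 and Prkaca were. Adra1b was also higher without overlap in TAC dantrolene than in TAC control there. The share of all genes on that scale is not given here.

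The sign of the fitted difference was negative for 6 of the 9 genes in TAC control against sham control, with a median log2 fold change of -0.28 beside 0.10 for all genes tested. It was positive for 7 of the 9 in TAC dantrolene against TAC control, with a median of 0.23 beside 0.02 for all genes. These 2 comparisons share the TAC control mice, so a low value there enters both with opposite sign. In sham dantrolene against sham control 4 were positive, with a median of -0.14 beside 0.02. For TAC dantrolene against sham dantrolene 5 were positive, with a median of 0.07 beside 0.08, and the difference farthest from 0 was that of Adra1a, -0.62 ± 0.45. On the FPKM scale Gnas and Prkar1a had the opposite sign in TAC control against sham control, Gnas in TAC dantrolene against TAC control, and Adrb1 and Prkar1a in sham dantrolene against sham control.

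**Figure D3:**
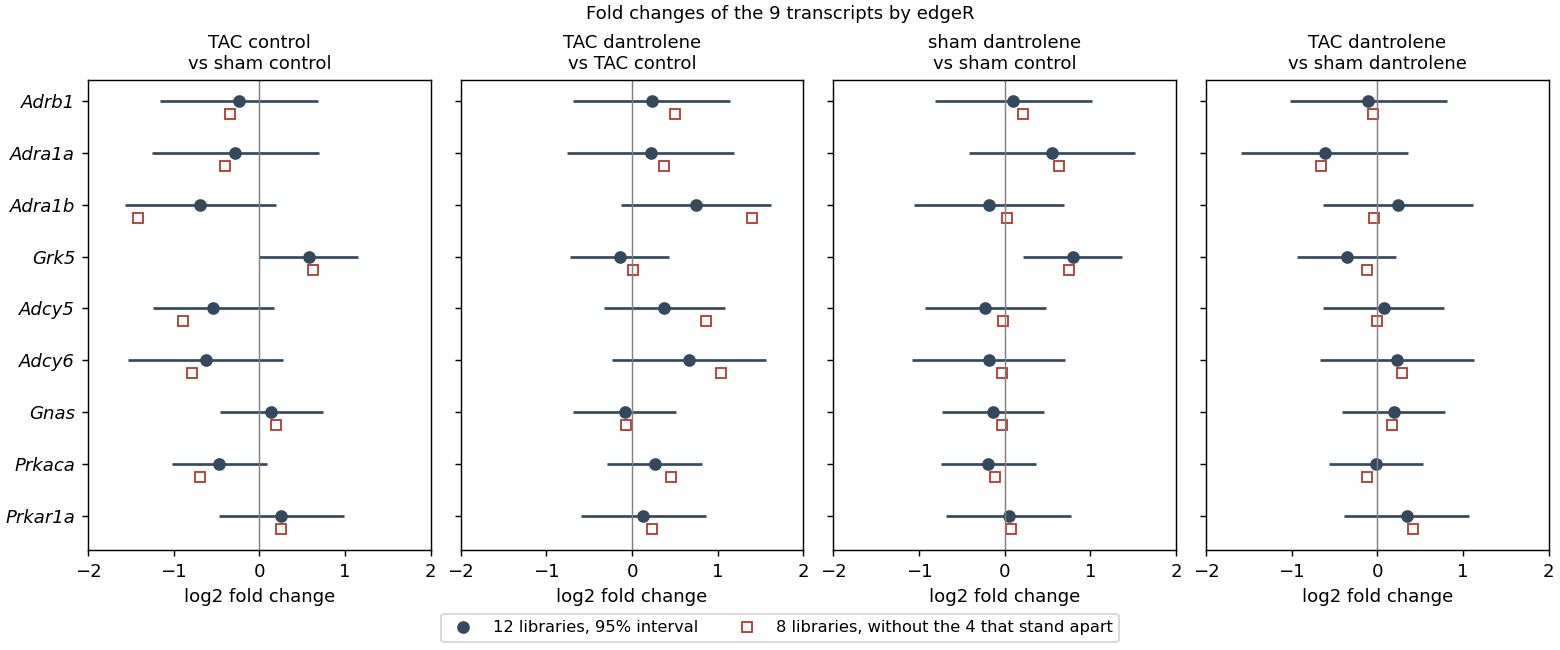
Log2 fold changes of the 9 genes in 4 comparisons by edgeR, with the 95% interval over 12 libraries (circles and lines) and the value over the 8 libraries left without those apart (open squares). Only the interval of Grk5 in sham dantrolene against sham control, 0.21 to 1.37, lies wholly to one side of 0, and the squares of Adra1b lie at -1.41 and 1.40 in the comparisons with TAC control.

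The 4 libraries apart divided the genes. Adrb1, Adra1a, Gnas and Prkar1a had their lowest value in the library apart in all 4 groups, as did 18.6% of all genes tested. Averaged over groups, the library apart differed from the others by -0.93 log2 units for Adra1a, -0.89 for Adrb1, -0.67 for Adcy6, -0.63 for Prkar1a, -0.34 for Gnas and -0.28 for Grk5. For Adra1b, Adcy5 and Prkaca the difference was positive, at 0.41, 0.18 and 0.09.

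**Figure D4:**
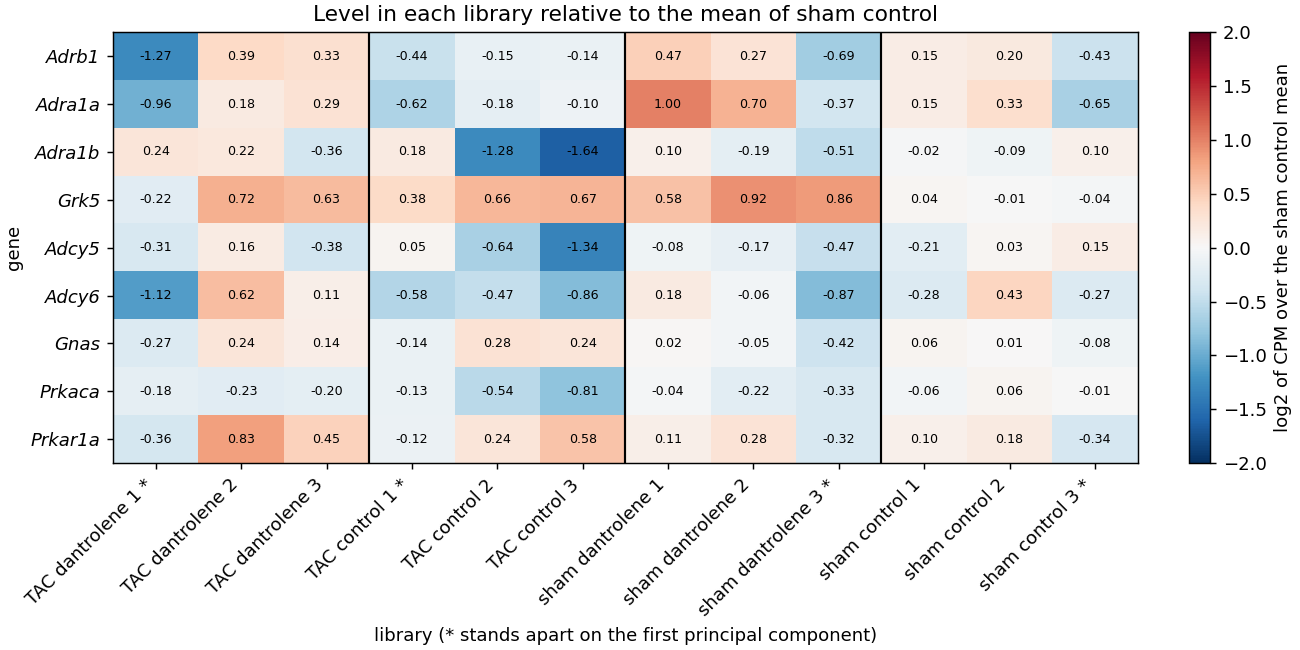
Log2 of the CPM in each library over the mean of sham control, for the 9 genes (rows) and 12 libraries (columns, by group, with an asterisk for each library that stands apart). Adra1b reads -1.28 and -1.64 in TAC control 2 and 3 and 0.18 in TAC control 1, and Grk5 reads 0.58, 0.92 and 0.86 in sham dantrolene.

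Around these genes, 97 of 101 listed genes of the pathway were tested, in 10 lists, and edgeR called 0 of them in any comparison. In TAC control against sham control 58 were positive and 39 negative, with a median of 0.12 beside 0.10 for all genes. Rgs5, which shortens Gα signals and marks pericytes, read 107, 182 and 289 CPM for TAC control against 67.2, 67.9 and 86.4 CPM for sham control (log2 1.38 ± 0.37, edgeR adjusted p = 0.458). Crem, a cyclic AMP responsive factor that includes repressor forms, was at 7.68, 5.14 and 7.73 CPM against 4.15, 2.58 and 2.31 CPM (1.18 ± 0.33, edgeR adjusted p = 0.474). Gnai3, an inhibitory G protein subunit, had 1.29 ± 0.52 with overlapping groups. Rrad, a small GTPase that restrains L-type calcium channels until protein kinase A phosphorylates it, read 154, 61.7 and 80.5 CPM for TAC control against 363, 355 and 283 CPM for sham control (-1.76 ± 0.42, edgeR adjusted p = 0.405). Pde4a, a phosphodiesterase that degrades cyclic AMP, had -0.89 ± 0.32 and Camk2g, a calmodulin kinase, -0.99 ± 0.42. At an unadjusted p under 0.05 the edgeR count was 7 of 97, beside 7.93% of all genes.

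Of the 97 genes 49 were positive and 48 negative in TAC dantrolene against TAC control. Rrad was at 225, 314 and 184 CPM in TAC dantrolene, above all TAC control mice (1.29 ± 0.41, edgeR adjusted p = 1.00). Akap12, an anchoring protein of the kinase, had 1.41 ± 0.54, which rested on TAC dantrolene 2 at 88.8 CPM beside 20.9 and 13.0 CPM in its group and 13.8 to 17.0 CPM in TAC control. Pde4a had 0.66 ± 0.32, and among genes with the opposite sign the smallest p belonged to Rgs4 (-0.85 ± 0.42) and Rgs5 (-0.65 ± 0.37). In the fit of 8 libraries edgeR called 1 pathway gene higher and 5 lower of 96 in TAC control against sham control. Of all genes it called 3.21% in either direction and 2.03% lower. The pathway genes called are listed next. These were Rgs5 at 1.77 and Pde4a, Rrad, Ddc, Adcy9 and Camk2g at -1.38, -2.36, -2.06, -1.76 and -0.96. It called 6 of 96 higher in TAC dantrolene against TAC control, with 1.65% of all genes called higher and 3.17% in either direction. The 6 were Pde4a, Pde4d, Adcy9, Cacna1c, Rrad and Camk2g, at 1.27, 1.78, 1.97, 1.07, 1.80 and 1.01. Both sets of calls rest on TAC control 2 and 3, the mice of that group left in this fit. Of the interaction tests that fit called 0.0465%, with 0 of the 9 genes and 0 pathway genes among them. Cacna1c encodes the pore of the L-type calcium channel, and Adcy9 an adenylyl cyclase.

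In sham dantrolene against sham control 48 pathway genes were positive and 49 negative. Crem was at 5.04, 5.48 and 5.58 CPM in sham dantrolene, above all sham control mice (0.83 ± 0.33, edgeR adjusted p = 1.00), as Grk5 was. Adcy10, the soluble cyclase, had 1.76 ± 1.21, which rested on sham dantrolene 3 at 2.79 FPKM beside 0.14 and 0.26 FPKM in its group. Grk4 had -1.36 ± 0.63, Rrad -0.68 ± 0.41 and Pde4c -0.44 ± 0.32. The level of Grk4 was very low, at 0.03 FPKM in sham dantrolene and 0.07 to 0.08 FPKM in sham control. In the interaction Rrad had 1.97 ± 0.58 and Crem -1.32 ± 0.46, followed by Camk2g at 1.13 ± 0.59, Rgs4 at -1.07 ± 0.59, Pde4a at 0.91 ± 0.46 and Rgs5 at -0.82 ± 0.52, each with an edgeR adjusted p = 1.00. Between TAC dantrolene and sham dantrolene 69 of 97 (71.1%) were positive beside 59.9% of all genes, with a median of 0.19 beside 0.08. Akap12 had 1.21 ± 0.54, Prkce, a protein kinase C, 0.96 ± 0.43, and Gnai3 0.88 ± 0.51 there. Prkar2b had -1.62 ± 0.96, Akap5 -1.55 ± 1.06 and Adcy10 -1.59 ± 1.21, all with overlapping groups. The Adcy10 value rested again on sham dantrolene 3.

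By list, the other 4 adrenergic receptors tested were split 2 and 2 in TAC control against sham control and had 3 positive of 4 in TAC dantrolene against TAC control. Of 13 other G protein genes and their regulators 11 were positive in TAC control against sham control (median 0.18) and 3 in TAC dantrolene against TAC control (median -0.07). Of all genes tested 57.2% (median 0.10) and 51.8% (median 0.02) were positive in these comparisons, which share the TAC control mice. Of 10 anchoring proteins 6 and 8 were positive in these comparisons, of 15 phosphodiesterases and cyclic AMP effectors 8 and 8, of 11 substrates of the kinase 7 and 5, and of 17 effectors of α1 receptors 9 and 10. The 7 other cyclases had 3 positive in each, the 7 other kinase subunits and inhibitors 5 and 4, the 6 other receptor kinases and arrestins 3 and 1, and the 7 genes of catecholamine synthesis and uptake 4 and 4. None of the genes of these lists passed the edgeR test.

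For each of the 9 genes the most similar profiles over the 12 libraries were sought, by the mean absolute difference of log2 CPM after each gene was centred. Prkaca was nearest to Me3 (0.0546) and Mfsd11 (0.0576), Gnas to Lars (0.0670) and Mrps9 (0.0710), and Adcy5 to Ube3b (0.0728) and Dennd4b (0.0739). Prkar1a was nearest to Optn (0.0873) and Bag5 (0.0895), Adcy6 to Tns1 (0.0916) and Numa1 (0.0956), and Adrb1 to Zfp746 (0.10) among the profiles reported. Adra1b was nearest to Tmem246 (0.128) and Mmp15 (0.144), Adra1a to Aasdh (0.162) and Gpatch2l (0.162), and Grk5 to Rnf213 (0.167) and Tcaf1 (0.173). None of the 9 was among the 2 nearest of another. Grk5 had the loosest match although its own range, 1.14 log2 units, was narrower than that of 6 of the others.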

How the data were processed

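Per the labels' protocols, poly(A) RNA of 12 left ventricles gave directional libraries that were sequenced as 150 nt pairs. Tools named in the submitters' processing notes, without versions, are TopHat2, bcl2fastq and edgeR, and the build is GRCm38. How reads were counted, and with which strand setting, is not given in the sources used here. Deposited by the authors were whole read counts per gene, not normalised, and FPKM values for 25258 of the 25319 genes, scaled to length and library total. 

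Counts were tested with edgeR 4.0.16 in R 4.3.3: filterByExpr (minimum count 10, total 15), TMM scaling, and 1 robust quasi-likelihood fit of 4 group means over 12 libraries, with 8 residual degrees of freedom. All tests were two-sided. The adjusted p follows Benjamini-Hochberg over 14965 genes (threshold 0.05). Intervals are 95%. CPM uses TMM-scaled totals. Libraries held 25766378 to 38363106 reads, and the common biological coefficient of variation was 0.443. The labels give each library as a separate mouse. The test was also run on simulated counts. The outcome is not reported here, so no rate of recovery at the spread of these data is given. The alternatives were DESeq2 1.42.0, limma 3.58.1 on log2(FPKM + 1) or log2(FPKM + 0.1), other scaling, no filter, a block for mouse number, and leaving out libraries.

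Same-numbered mice were checked for shared deviations from the group means. The correlations were 0.556, 0.300 and 0.613 between TAC dantrolene and TAC control and 0.465, 0.366 and 0.672 between sham dantrolene and sham control. Each was over the criterion of 0.1, so the block took the numbers to pair the mice within an arm. Between TAC control and sham control they were -0.294, 0.283 and -0.304, and between TAC dantrolene and sham dantrolene -0.377, 0.270 and -0.313. The libraries apart share a number within each arm, 1 under TAC and 3 under sham, and their part in these correlations was not tested. The pairing comes from the data and not from the labels. The main fit held no term for it, so its errors ignore any pairing. Coordinates are from GENCODE vM21, to which 25116 of 25319 identifiers matched.

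The 9 genes and all lists were chosen with earlier results of these data known. Beside the 9, the text names the 3 pathway genes with the smallest p in each direction of each comparison, those called in the fit of 8 libraries, and the 2 nearest profiles of each gene. A few genes that this rule would name are not reported here. Hspa1a, Dbp, family members named by share and the ratios were chosen after their values were seen.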

Additional observations from a re-analysis of the deposited data

How the results depend on the processing

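Over 45 fold changes of the 9 genes (5 comparisons), 383 of 405 values under other settings kept their sign and their side of the threshold, 20 changed sign and 2 became calls, both of Adra1b without the 4 libraries apart. Of 324 values with 1 library left out, 295 kept both, 29 changed sign and 0 became calls. The block for mouse number (replicate block) called 0 genes and 0 of the 9 in every comparison, and changed no call. For TAC dantrolene against TAC control it gave Adra1b 0.95 ± 0.27, beside 0.75 ± 0.41 in the main fit. For sham dantrolene against sham control it gave Grk5 0.78 ± 0.19, beside 0.79 ± 0.27. Between arms an error could grow, as for Adrb1 in TAC control against sham control, -0.22 ± 0.51 beside -0.24 ± 0.42. In TAC control against sham control the 0 genes called by edgeR became 71 by DESeq2, 3 without a filter, 1 by limma on log2(FPKM + 1) over every gene, 21 with the libraries apart as a covariate, 484 without them (1 of the 9), and 0 to 15 with 1 library left out, 15 being without TAC control 1. In TAC dantrolene against TAC control they became 11 by DESeq2, 1 without a filter, 478 without the libraries apart (1 of the 9) and 0 to 1 with 1 library left out, again without TAC control 1. They became 2 in sham dantrolene against sham control and 1 in TAC dantrolene against sham dantrolene by limma over every gene, and in the interaction 1 by DESeq2 and 7 without the libraries apart. The cause of these shifts was not tested.

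With FPKM in place of TMM-scaled counts, at pseudocounts 1 and 0.1, signs changed for Gnas (-0.130 and -0.133) and Prkar1a (-0.013 and -0.014) in TAC control against sham control, Gnas (0.043 at both) in TAC dantrolene against TAC control, and Adrb1 (-0.027 and -0.053) and Prkar1a (-0.056 and -0.058) in sham dantrolene against sham control, with the same values at pseudocount 1 over every gene. Library-total scaling moved the median of all genes by -0.18 in TAC control against sham control and by 0.12 in the interaction. Without the libraries apart signs changed for Grk5 in TAC dantrolene against TAC control (0.012), Adra1b in sham dantrolene against sham control (0.029) and in TAC dantrolene against sham dantrolene (-0.043), Adcy5 in the last (-0.0011), and Gnas in the interaction (-0.029).

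Leaving out 1 library changed signs within these ranges. In TAC dantrolene against TAC control they were -0.023 to 0.574 for Adrb1, -0.307 to 0.077 for Grk5, -0.205 to 0.030 for Gnas and -0.153 to 0.375 for Prkar1a. In sham dantrolene against sham control they were -0.136 to 0.373 for Adrb1, -0.414 to 0.082 for Adcy6 and -0.089 to 0.198 for Prkar1a. In TAC dantrolene against sham dantrolene they were -0.380 to 0.220 for Adrb1, -0.116 to 0.175 for Adcy5, -0.188 to 0.536 for Adcy6 and -0.079 to 0.069 for Prkaca. In the interaction they were -0.142 to 0.469 for Adrb1, -0.068 to 0.163 for Gnas and -0.197 to 0.324 for Prkar1a. A library left out leaves a group of 2, assumed to vary like the others. With 3 mice a group and a library apart in each, the intervals of most of the 9 genes contain a halving or a doubling. For those genes a true difference of that size was not excluded.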
